A study of Mus musculus with 19 samples.

Results

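The MCM replication helicase genes are the 7 genes Mcm2, Mcm3, Mcm4, Mcm5, Mcm6, Mcm7 and Mcm10, of 40413 genes in the kidney count table. They were taken by symbol, and all 7 passed the filter on low counts that left 16421 genes for testing. The set was chosen by the Mcm6 level in vehicle mice, which was far lower in BPH/2J than in BPN/3J, together with the other genes of its helicase, and the question was whether that strain difference is confined to Mcm6. For the members the vehicle comparison between strains is therefore described without a test. Their tests rest on the Cmpd17b-treated mice, on the comparisons between treatments and on deviations of mice within groups. Genes outside the set are tested under vehicle as well.

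The kidneys came from adult mice of 2 inbred strains, BPN/3J with normal blood pressure and BPH/2J with high blood pressure. Mice received vehicle or Cmpd17b, an agonist of formylpeptide receptors, at 50 mg/kg/day by intraperitoneal injection for 28 days. Polyadenylated RNA was sequenced from 1 kidney sample per mouse, and each library is named for a different animal. The 18 libraries used were 4 from BPN/3J mice on vehicle, 5 from BPN/3J mice on Cmpd17b, 5 from BPH/2J mice on vehicle and 4 from BPH/2J mice on Cmpd17b. The strains differ in genetic background and in blood pressure at once, and these cannot be told apart.

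One library stands apart from the others of its strain, BPH/2J vehicle replicate 5. Besides Mcm6, 48 genes were called lower in treated BPH/2J mice with a log2 fold change below -3 and a mean of at least 2 CPM in treated BPN/3J. Their median level in replicate 5 was 27.2% of the treated BPN/3J mean, against 2.32% to 4.94% in the other 8 BPH/2J libraries and 89.4% to 104% in BPN/3J. Over the 104 genes with the opposite difference, replicate 5 stood at 68.5% of the treated BPH/2J mean, within the 52.2% to 132% of the other BPH/2J libraries. Both sets were chosen in treated mice, so only the vehicle libraries are free of that choice. Among the other vehicle libraries the 48 genes ran from 2.32% to 4.94% in BPH/2J and from 89.7% to 99.7% in BPN/3J. Why replicate 5 stands apart was not tested. This library enters the strain comparison under Cmpd17b only through the estimate of spread and the scaling, and without it Mcm6 stood there at -3.21 (edgeR adjusted p = 4.99e-07) and Mcm10 at -0.64 (edgeR adjusted p = 0.0161). The library was kept, and values that rest on it are also given without it, a choice made after its levels were seen.

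The Mcm2, Mcm3, Mcm4, Mcm5, Mcm6 and Mcm7 proteins form a ring that is loaded around DNA at replication origins before S phase and unwinds it as the core of the replicative helicase. Mcm10 is not part of the ring: it binds the loaded helicase and is needed to activate it and to keep the fork moving. In cultured cells these genes are known as targets of E2F transcription factors that are switched on as cells enter the cycle, and in the adult kidney few cells are cycling.

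To show which E2F words stand in the promoters, windows of 300 bases were read from RefSeq (GRCm38.p6), covering 250 bases before and 50 after the annotated start. A window was found for 6 of the 7 members, and Mcm7 has 2. The words searched were TTTCCCGC, TTTCGCGC, TTTGCCGC and TTTGGCGC, on both strands and with overlaps counted. Of 32851 windows of this length, 2.26% held at least 1 of them. The 3 windows printed are those of the member with the largest strain difference (Mcm6), of a ring subunit with no detected strain difference under Cmpd17b (Mcm5) and of the other member that differed (Mcm10). Capitals mark the E2F words.
Mcm6 promoter (chr1:128359656-128359955, minus strand): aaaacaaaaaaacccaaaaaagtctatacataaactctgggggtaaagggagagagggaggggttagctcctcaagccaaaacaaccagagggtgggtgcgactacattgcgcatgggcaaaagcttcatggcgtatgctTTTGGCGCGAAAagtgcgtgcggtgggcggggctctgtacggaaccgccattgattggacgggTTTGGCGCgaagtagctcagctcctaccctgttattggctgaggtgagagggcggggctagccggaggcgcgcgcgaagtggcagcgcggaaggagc
Mcm5 promoter (chr8:75109259-75109558, plus strand): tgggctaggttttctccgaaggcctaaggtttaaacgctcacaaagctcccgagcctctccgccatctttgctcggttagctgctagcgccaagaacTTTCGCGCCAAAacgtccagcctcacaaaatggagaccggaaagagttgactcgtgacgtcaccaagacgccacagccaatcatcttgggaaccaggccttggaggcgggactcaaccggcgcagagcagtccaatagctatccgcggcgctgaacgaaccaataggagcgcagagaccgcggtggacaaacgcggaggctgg
Mcm10 promoter (chr2:5012742-5013041, minus strand): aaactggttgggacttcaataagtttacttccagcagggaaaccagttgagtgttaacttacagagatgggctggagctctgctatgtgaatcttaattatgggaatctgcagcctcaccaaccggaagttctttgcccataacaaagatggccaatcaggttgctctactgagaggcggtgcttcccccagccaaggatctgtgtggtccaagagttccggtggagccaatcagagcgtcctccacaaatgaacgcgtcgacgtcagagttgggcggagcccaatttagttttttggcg

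The Mcm6 window held 3 matches, TTTGGCGC at base 141, TTTCGCGC on the other strand at base 145 and TTTGGCGC at base 204, and the first and the second overlap. The Mcm5 window held 2 overlapping matches, at bases 98 and 102. The Mcm3 window and the first Mcm7 window held 2 each, while the windows of Mcm2, Mcm10 and the second start of Mcm7 held none. The Mcm10 window ends in tttggcg, the start of TTTGGCGC, and the base after it was not read. CCAAT, a common promoter word, stood in 37.4% of all windows. It stood 3 times in the windows of Mcm3, Mcm5 and Mcm10 and in the first of Mcm7. The Mcm6 window held it 2 times, and those of Mcm2 and the second start of Mcm7 held it 1 time each. These are matches of letters in the reference sequence, not measured binding, and the reference is not a sequence of either strain.

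Mcm6 encodes a subunit of the helicase ring. Levels are given as CPM, the count of a gene scaled to library size with TMM factors. In BPN/3J mice on vehicle Mcm6 stood at 28.8, 20.6, 29.2 and 20.4 CPM, and in BPN/3J mice on Cmpd17b at 17.9, 18.1, 18.5, 19.9 and 20.7 CPM. In BPH/2J mice on vehicle it stood at 1.72, 2.67, 0.634, 1.10 and 6.35 CPM, and in BPH/2J mice on Cmpd17b at 1.81, 1.48, 2.33 and 2.65 CPM. No BPH/2J library reached the level of any BPN/3J library. The rounded counts behind these levels ran from 538 to 1241 in BPN/3J and from 17 to 147 in BPH/2J, so Mcm6 was measured above 0 in all 18 libraries. Under vehicle the group means were 24.8 ± 4.92 CPM (SD, n = 4) in BPN/3J and 2.49 ± 2.29 CPM (SD, n = 5) in BPH/2J, a fitted log2 fold change of -3.34, which is the value that drew attention to the gene and is not tested. Without BPH/2J vehicle replicate 5, its highest mouse, the BPH/2J mean was 1.53 ± 0.879 CPM (SD, n = 4) and the log2 fold change -4.00.

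Mcm10, the helicase activator, also lay at separate levels in the strains. It stood at 13.7, 10.2, 13.6 and 12.1 CPM in BPN/3J mice on vehicle and at 7.73, 6.995, 8.29, 8.53 and 10.4 CPM in BPN/3J mice on Cmpd17b. In BPH/2J it stood at 5.86, 6.03, 7.53, 5.003 and 8.47 CPM on vehicle and at 6.35, 5.90, 5.09 and 4.03 CPM on Cmpd17b. The strains did not overlap within either treatment, although the highest BPH/2J vehicle mouse lay above 3 of the BPN/3J mice on Cmpd17b. How many of all tested genes lay at separate levels in this way was not counted, so nothing is read from the separation itself. Under vehicle the means were 12.4 ± 1.65 CPM (SD, n = 4) and 6.58 ± 1.40 CPM (SD, n = 5), and the fitted log2 fold change, also a description, was -0.92 (-1.02 without BPH/2J vehicle replicate 5).

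**Figure D1:**
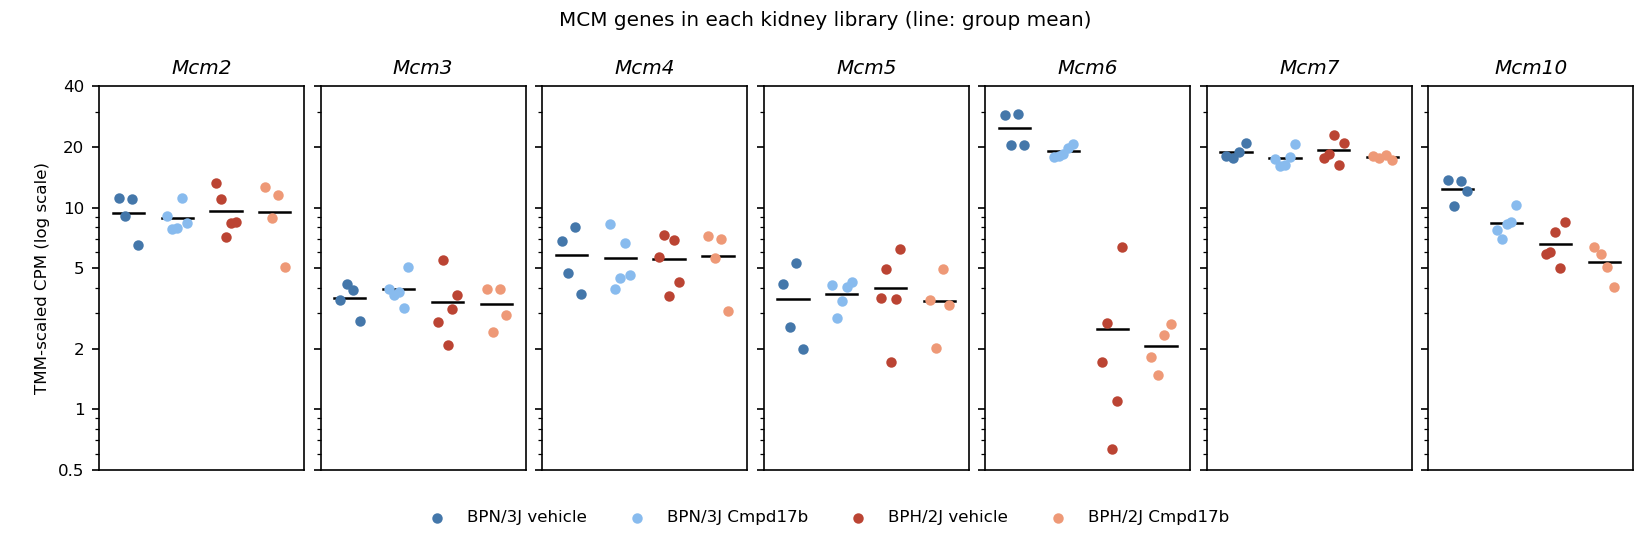
TMM-scaled CPM (log axis) of the 7 MCM genes in each of the 18 kidney libraries, with points for mice coloured by strain and treatment and a line at each group mean. Mcm6 separates the strains, at 17.9 CPM or more in BPN/3J and 6.35 CPM or less in BPH/2J, Mcm10 separates them within each treatment, and the other 5 genes overlap. The share of all tested genes that separate in this way was not counted.

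The other ring subunits did not follow Mcm6. Mcm7 was at 18.01, 17.6, 18.97 and 20.9 CPM in BPN/3J vehicle mice and at 17.7, 18.5, 23.0, 16.3 and 20.9 CPM in BPH/2J vehicle mice. Mcm5 was at 4.20, 2.55, 5.30 and 1.98 CPM in BPN/3J vehicle mice and at 3.57, 4.98, 1.72, 3.51 and 6.22 CPM in BPH/2J vehicle mice. The groups overlapped for both genes, and likewise for Mcm2, Mcm3 and Mcm4. Over the libraries of all 4 groups Mcm2 ran from 5.07 to 13.3 CPM, Mcm3 from 2.09 to 5.48 CPM and Mcm4 from 3.05 to 8.27 CPM. Fitted log2 fold changes under vehicle, again as a description, were 0.04 for Mcm2, -0.06 for Mcm3, -0.07 for Mcm4, 0.19 for Mcm5 and 0.03 for Mcm7. In that comparison 10.8% of all tested genes were called (5.82% higher and 4.94% lower). Nothing is read from this for the members, because the comparison chose them.

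The order of the vehicle differences was thus Mcm6 at -3.34, Mcm10 at -0.92 and the remaining 5 between -0.07 and 0.19. Across all genes tested the median log2 fold change of this comparison was 0.04.

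The strain comparison in treated mice uses no library of the vehicle comparison, although the estimate of spread comes from all 18 libraries. Here Mcm6 and Mcm10 were lower in BPH/2J, and the other 5 members were not called in either direction. Called means an adjusted p under 0.05 (edgeR quasi-likelihood test, Benjamini-Hochberg over all 16421 genes), and 10.4% of all tested genes were called, 5.71% as higher and 4.65% as lower. Mcm6 was at 19.01 ± 1.22 CPM (SD, n = 5) in BPN/3J and at 2.07 ± 0.526 CPM (SD, n = 4) in BPH/2J. Its log2 fold change was -3.21 (SE 0.442), a level 9.28-fold lower, with an adjusted p of 5.95e-05 in edgeR's quasi-likelihood test. All 4 BPH/2J mice lay below all 5 BPN/3J mice.

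Mcm10 was at 8.38 ± 1.25 CPM (SD, n = 5) in treated BPN/3J mice and at 5.35 ± 1.02 CPM (SD, n = 4) in treated BPH/2J mice. Its log2 fold change was -0.64 (SE 0.174), a level 1.56-fold lower, with an edgeR adjusted p of 0.0223, and again the groups did not overlap. This call rests on few mice. It was lost without BPH/2J Cmpd17b replicate 4 (-0.62, edgeR adjusted p = 0.0553), without BPH/2J Cmpd17b replicate 5 (-0.53, edgeR adjusted p = 0.073) and without BPN/3J Cmpd17b replicate 5 (-0.55, edgeR adjusted p = 0.0564). The Mcm6 call was kept in all 18 refits that each left out 1 library and in all 9 other settings. Fitted on the treated libraries alone, Mcm6 stood at -3.21 (edgeR adjusted p = 1.00e-06) and Mcm10 at -0.64 (edgeR adjusted p = 0.0437).

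For the 5 members not called, the interval of the strain difference says how large a change these mice leave room for. Mcm7 had the narrowest, a log2 fold change of 0.01 with a 95% interval from -0.21 to 0.24. The interval ran from -0.38 to 0.61 for Mcm2, from -0.76 to 0.26 for Mcm3, from -0.57 to 0.66 for Mcm4 and from -0.83 to 0.58 for Mcm5. None of the 5 intervals reached the strain difference of Mcm6, whose own interval ran from -4.14 to -2.29. Those of Mcm3 and Mcm5 did include the estimate for Mcm10, -0.64. The median over the 7 members was -0.13, against 0.01 over all genes tested.

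**Figure D2:**
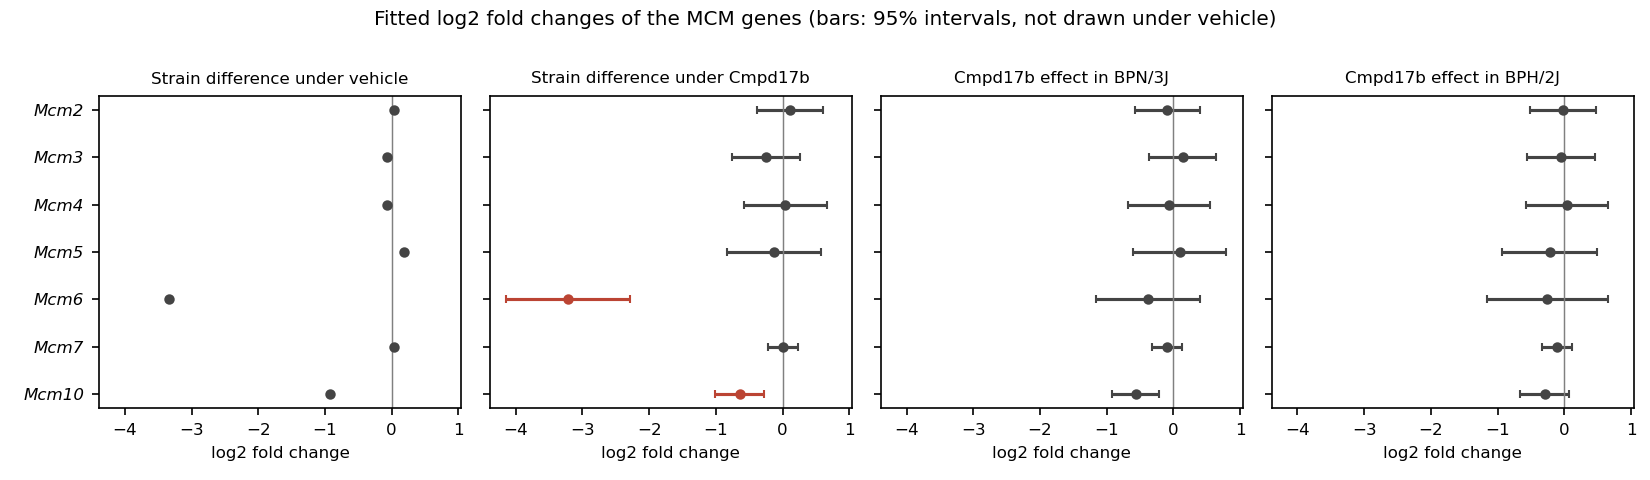
Fitted log2 fold changes (x axis) of the 7 genes in 4 comparisons, with BPH/2J over BPN/3J on the left and Cmpd17b over vehicle on the right, and bars for 95% intervals, which are not drawn for the vehicle comparison that chose the genes. Red marks the called genes, Mcm6 at -3.21 and Mcm10 at -0.64 under Cmpd17b.

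Whether Mcm6 differed between strains by more than the rest of its own complex was tested as the log2 ratio of Mcm6 to each other member within each mouse, which does not depend on the library scaling apart from the pseudocount of 0.5 CPM. In treated mice the ratio of Mcm6 to Mcm7, for example, was 0.11 ± 0.0816 (SD, n = 5) in BPN/3J and -2.86 ± 0.312 (SD, n = 4) in BPH/2J. The strain difference in the ratio was -2.98 against Mcm2, -2.72 against Mcm3, -2.96 against Mcm4, -2.79 against Mcm5, -2.96 against Mcm7 and -2.34 against Mcm10. For all 6 ratios every BPH/2J mouse lay below every BPN/3J mouse. The two-sided exact permutation p was 0.00794 for each of the 6, with the same value after Benjamini-Hochberg adjustment over them, and this is the smallest p that 4 against 5 mice allow. The 6 tests share their numerator and are not independent. In vehicle mice, given without a test, the differences ran from -3.50 against Mcm5 to -2.47 against Mcm10, and without BPH/2J vehicle replicate 5 from -3.78 against Mcm2 to -2.75 against Mcm10.

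Within the ring, levels can be set side by side only per length, here as CPM per kb of the longest coding transcript in GENCODE M21, which ran from 2962 bases for Mcm7 to 4867 for Mcm10. In BPN/3J vehicle mice Mcm7 led with 6.36 ± 0.495 CPM per kb, followed by Mcm6 with 5.69 ± 1.13 (both SD, n = 4), and the ranges of these overlapped. Next came Mcm2 (2.80), Mcm10 (2.55), Mcm4 (1.63), Mcm3 (1.18) and Mcm5 (1.04), each of which overlapped with its neighbour in the order. In BPN/3J mice on Cmpd17b the first 3 were Mcm7 (5.97), Mcm6 (4.37) and Mcm2 (2.63) CPM per kb, and these did not overlap with each other. Mcm6 was thus in place 2 of 7 in both BPN/3J groups.

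In BPH/2J the order of the other ring genes was similar, with Mcm7 at 6.51 CPM per kb on vehicle and 6.02 on Cmpd17b and Mcm2 at 2.87 and 2.83. Mcm6 was last of 7 in both groups, at 0.573 ± 0.525 CPM per kb on vehicle (SD, n = 5) and 0.474 ± 0.121 on Cmpd17b (SD, n = 4). Its range nevertheless overlapped with that of the member above it, Mcm3 on vehicle and Mcm5 on Cmpd17b. Without BPH/2J vehicle replicate 5 the vehicle level of Mcm6 was 0.351 CPM per kb, and its highest mouse (0.612) lay below the lowest for Mcm3 (0.689) but above the lowest for Mcm5 (0.507). The transcripts that the kidney cells use may differ in length from those taken here, and the place of a gene in the order shares that uncertainty.

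**Figure D3:**
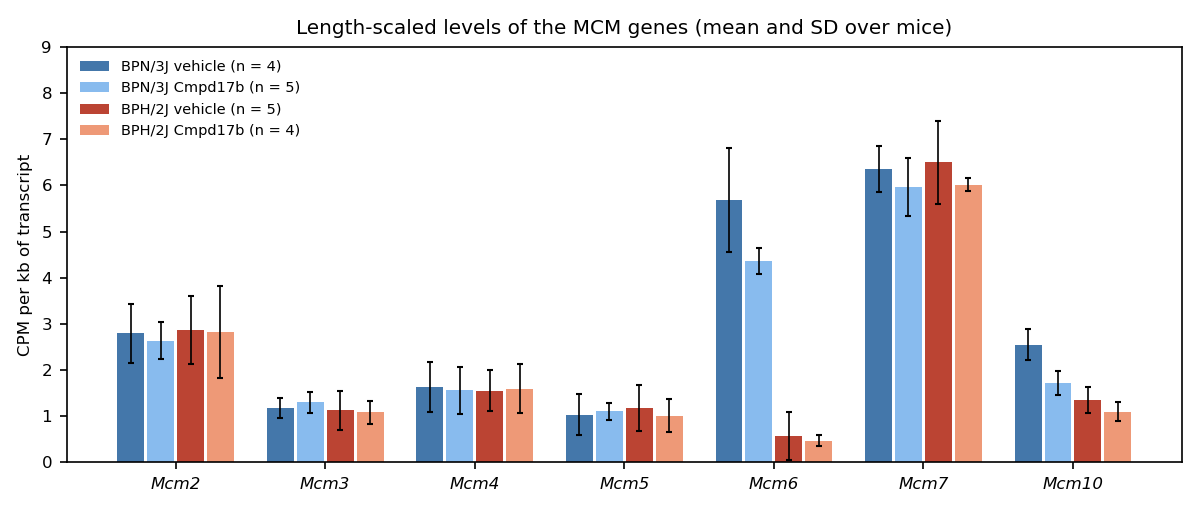
Mean CPM per kb of transcript (y axis, bars from 0, with error bars for SD over mice) of the 7 genes in the 4 groups. Mcm6 is in place 2 in BPN/3J (5.69 and 4.37) and in the last place in BPH/2J (0.573 and 0.474), while Mcm7 lies between 5.97 and 6.51 in all groups.

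Some of these counts could hold reads of other genes. Of the 50-base words in the Mcm7 transcript, 34.2% also stand in another gene's transcript (Cops6, Ap4m1 or Gm5487). Mcm7 overlaps Cops6 and Ap4m1 on the opposite strand and hosts Mir25, Mir93 and Mir106b, and whether the counting used strand is not given in the sources used here, so its level is uncertain. The shared portion was 1.55% for Mcm4, 0.511% for Mcm6, 0.45% for Mcm5 and 0 for Mcm2, Mcm3 and Mcm10, none of which overlaps another gene in that annotation.

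Cmpd17b was compared with vehicle within each strain. No member was called in either strain by edgeR, DESeq2 or limma-voom. In BPN/3J mice 0% of all tested genes were called, with 415 at an unadjusted p under 0.05, and in BPH/2J mice 0.164% were called. At an unadjusted p under 0.05 stood 0 members in BPH/2J and 1 in BPN/3J, Mcm10. The adjusted p of Mcm10 there ran from 0.433 to 1 over the other settings (DESeq2 gave the lowest). Its mean was 8.38 CPM on Cmpd17b against 12.4 CPM on vehicle, with 4 of 5 treated mice below all 4 vehicle mice and 1 at 10.4 CPM, just above the lowest vehicle mouse. The log2 fold change was -0.57 (95% interval -0.92 to -0.21), which does not pass the correction over all genes (edgeR adjusted p = 1).

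For Mcm6 the Cmpd17b effect was a log2 fold change of -0.38 in BPN/3J (95% interval -1.16 to 0.40) and -0.26 in BPH/2J (-1.17 to 0.65). The BPH/2J value changed sign under limma-voom, to 0.16, and without BPH/2J vehicle replicate 5, to 0.40 (95% interval -0.24 to 1.04). Mcm10 in BPH/2J was at -0.29 (95% interval -0.66 to 0.08). The interval of Mcm7 was narrow in both strains, from -0.32 to 0.13 in BPN/3J and from -0.34 to 0.12 in BPH/2J. For the other ring genes the effects ran from -0.09 (Mcm2) to 0.14 (Mcm3) in BPN/3J and from -0.22 (Mcm5) to 0.04 (Mcm4) in BPH/2J.

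Whether the Cmpd17b effect differed between strains was tested as an interaction, in which 0.0304% of all tested genes were called. No member was called by edgeR, DESeq2 or limma-voom, and 0 members had an unadjusted p under 0.05. The difference of effects was 0.12 for Mcm6 (95% interval -1.08 to 1.33) and 0.28 for Mcm10 (-0.23 to 0.78). Without BPH/2J vehicle replicate 5 it was 0.78 for Mcm6 (95% interval -0.0363 to 1.61, edgeR adjusted p = 0.9998) and 0.38 for Mcm10. Over all 18 libraries the interval of Mcm6 is wide enough to hold a change of 2-fold either way.

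Mice of a group differed in their MCM levels, and the deviations of each mouse from its group mean, in log2(CPM + 0.5), were correlated over the 18 libraries for all 21 pairs of members. Mcm2 and Mcm4 deviated together (r = 0.81, permutation p = 0.00062, adjusted p = 0.013, rho = 0.73, permutation p = 0.00211). So did Mcm5 and Mcm6 (r = 0.79, permutation p = 0.00133, adjusted p = 0.014, rho = 0.83, permutation p = 0.00142) and Mcm7 and Mcm10 (r = 0.71, permutation p = 0.00294, adjusted p = 0.0206, rho = 0.70, permutation p = 0.00331). Mcm3 and Mcm5 passed by rho (0.69, permutation p = 0.00505, adjusted p = 0.0265) and not by r (0.69, permutation p = 0.0103, adjusted p = 0.0543). No other pair had an adjusted p under 0.05 by either measure, and 17 of the 21 values of r were above 0. Without the 2 mice farthest from the median of the first gene, r was 0.80, 0.71 and 0.65 in the same order.

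Within a strain (n = 9 mice each) the 3 pairs kept their direction: r was 0.83 in BPN/3J and 0.82 in BPH/2J for Mcm2 and Mcm4, 0.91 and 0.84 for Mcm5 and Mcm6, and 0.66 and 0.75 for Mcm7 and Mcm10. No pair passed the adjustment over 21 pairs within 1 strain. The points share library depth and scaling, whose part was not tested. Mcm6 and Mcm10, the members that were lower in BPH/2J, had a pooled r of 0.27 (permutation p = 0.452, adjusted p = 0.73), with 0.76 in BPN/3J and 0.20 in BPH/2J. Without BPH/2J vehicle replicate 5 the pooled r was -0.16 for that pair, and 5 pairs passed by r, the same 3 with Mcm3 and Mcm5 (r = 0.71, adjusted permutation p = 0.0424) and Mcm4 and Mcm5 (r = 0.69, adjusted permutation p = 0.0424).

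**Figure D4:**
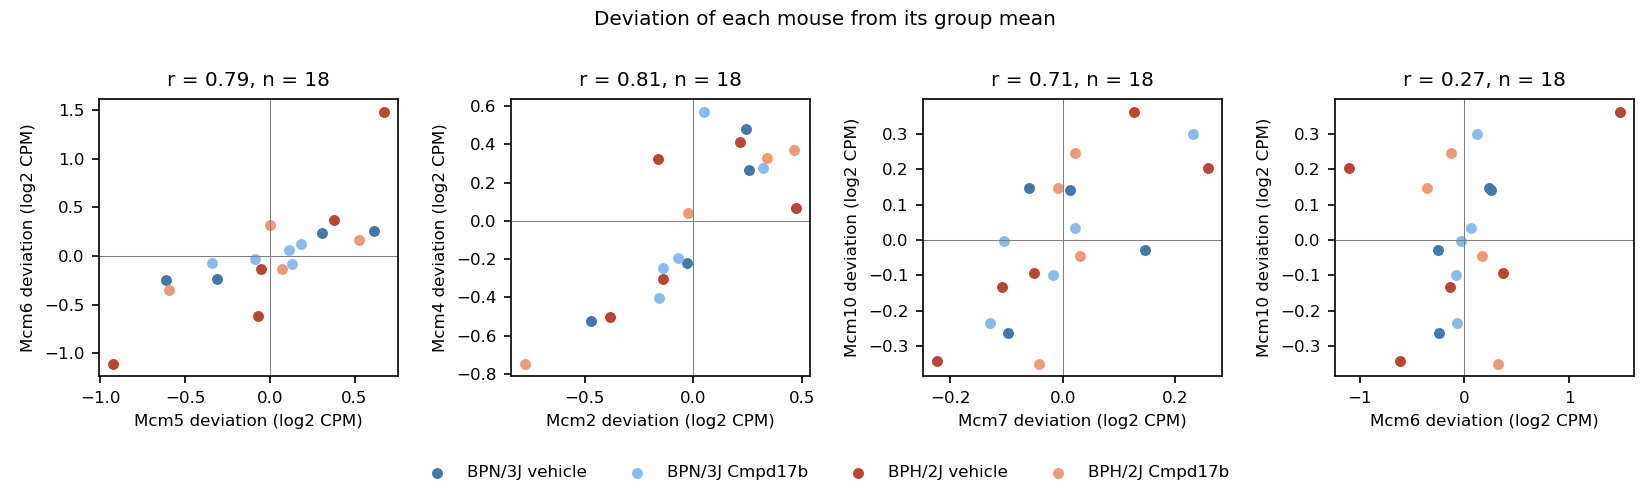
Deviation of each mouse from its group mean in log2(CPM + 0.5) for 4 pairs of members, with points coloured by group. Mcm5 with Mcm6 (r = 0.79), Mcm2 with Mcm4 (r = 0.81) and Mcm7 with Mcm10 (r = 0.71) deviate together, whereas Mcm6 with Mcm10 (r = 0.27) do not pass the test.

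The BPH/2J vehicle mouse with the highest Mcm6 in its strain was replicate 5, at 6.35 CPM. It also had the group's highest Mcm5 (6.22 CPM), Mcm10 (8.47 CPM), Mki67 (5.83 CPM) and Top2a (2.85 CPM). Its Mcm2 (8.51 CPM), Mcm3 (3.67 CPM), Mcm4 (4.28 CPM) and Mcm7 (20.9 CPM) were not the group's highest. This is the library whose levels of strain-separating genes stand apart from the rest of BPH/2J, and the part of that in these levels was not tested. Mki67 and Top2a are expressed in cycling cells and are standard proliferation markers. The mouse with the lowest Mcm6, replicate 3 at 0.634 CPM, had the group's lowest Mcm2, Mcm3, Mcm4, Mcm5 and Mki67 (0.821 CPM) but its highest Mcm7 (23.0 CPM). Between strains Mki67 was not called: its means were 1.81 ± 0.668 CPM in BPN/3J and 2.91 ± 2.04 CPM in BPH/2J on vehicle (log2 fold change 0.68, edgeR adjusted p = 0.39), and 2.56 ± 0.704 against 1.93 ± 0.815 CPM on Cmpd17b (-0.42, edgeR adjusted p = 0.613). Top2a was not called either (0.84 on vehicle, edgeR adjusted p = 0.233, and -0.19 on Cmpd17b, edgeR adjusted p = 0.811). Without replicate 5 the vehicle differences were 0.28 for Mki67 and 0.61 for Top2a (edgeR adjusted p = 0.772 and 0.452).

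The wider replication machinery was described with 11 further lists of 117 genes, of which 112 were tested. Under Cmpd17b 5 of the 112 were higher and 6 lower in BPH/2J, and the median log2 fold change was 0.04 against 0.01 for all genes, a called portion near the 10.4% of the background. Under vehicle 5 were higher and 7 lower, near the background of 10.8%. The count under Cmpd17b is sensitive to the mice included, between 5 and 11 when 1 library is left out, with 7 without BPH/2J Cmpd17b replicate 2, 6 without replicate 3, 6 without BPN/3J Cmpd17b replicate 2 or 4 and 5 without replicate 3.

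Of the genes that load the MCM ring, 1 of 8 tested was lower under Cmpd17b: Cdc6, which brings the ring to the origin recognition complex, was at 0.894 ± 0.221 CPM in BPN/3J (SD, n = 5) and 0.186 ± 0.205 CPM in BPH/2J (SD, n = 4). Its log2 fold change was -2.17 (edgeR adjusted p = 0.0145), at low counts of 21 to 34 in BPN/3J and 0 to 12 in BPH/2J. The call was lost without BPH/2J Cmpd17b replicate 3 (-1.91, edgeR adjusted p = 0.0522). Under vehicle Cdc6 stood at -0.90 (edgeR adjusted p = 0.276), with overlapping groups. Of 11 helicase activation genes 1 was higher under Cmpd17b, Dbf4, the regulatory subunit of the kinase that phosphorylates the ring (0.77, edgeR adjusted p = 0.0313). E2f1, a transcription factor that acts on MCM genes, was the 1 called of 11 G1/S regulators, and it was higher (0.96, edgeR adjusted p = 0.0349). The calls of Dbf4 and E2f1 were each kept in 11 of the 18 refits that left out 1 library. Under vehicle neither was called, with Dbf4 at 0.24 (edgeR adjusted p = 0.547) and E2f1 at 0.63 (edgeR adjusted p = 0.188).

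Downstream of the helicase, Pcna, the sliding clamp of the polymerases, was lower in BPH/2J under vehicle (-0.64, edgeR adjusted p = 0.0151) and under Cmpd17b (-0.56, edgeR adjusted p = 0.0383). Pold3, a subunit of polymerase delta, was lower in both (-0.40 and -0.37, edgeR adjusted p = 0.0107 and 0.0194), and Rpa3, a subunit of the complex that coats single-stranded DNA, was higher in both (0.89 and 0.73, edgeR adjusted p = 0.00504 and 0.0174). The called genes of this machinery therefore did not share a direction. Chaf1b of the fork complex list, a histone chaperone subunit, was higher under Cmpd17b (0.92, edgeR adjusted p = 0.0446), with 6 of 18 refits keeping the call. Under vehicle Chaf1b was not called (0.48, edgeR adjusted p = 0.315). Pcna was kept in 12 of the 18 refits. Pold3 was lost without BPH/2J Cmpd17b replicate 2 or 3 or BPN/3J Cmpd17b replicate 4 (edgeR adjusted p from 0.0545 to 0.0599), and Rpa3 without replicate 3 of either treated group (0.0721 and 0.05003).

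Among regulators of the cycle, Cdkn1c, an inhibitor of cyclin-dependent kinases, was higher in BPH/2J, at 17.2 ± 10.3 CPM against 6.01 ± 1.15 CPM on Cmpd17b (log2 fold change 1.51, edgeR adjusted p = 0.00216). Cdkn2c, another inhibitor, was lower (-0.42, edgeR adjusted p = 0.0436), and 9 of the 18 refits kept that call. Atrip, which recruits the checkpoint kinase Atr to stalled forks, was lower under Cmpd17b (-1.60, edgeR adjusted p = 0.00577). Nusap1, a spindle protein, was lower as well (-1.48, edgeR adjusted p = 0.0129), the only called gene of 22 in the mitosis and proliferation list under Cmpd17b. That list's median changed sign between the arms, 0.40 on vehicle and -0.35 on Cmpd17b.

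None of the 4 other MCM family genes was called in either strain comparison by edgeR. Mcmbp, whose protein binds MCM subunits, was at 25.6 ± 1.21 CPM in treated BPN/3J mice and 22.1 ± 2.06 CPM in treated BPH/2J mice (-0.21, edgeR adjusted p = 0.117). Mcm9, which acts with Mcm8 in DNA repair, was at 8.43 ± 0.542 and 8.75 ± 1.42 CPM (0.05, edgeR adjusted p = 0.842). None of the 6 nucleotide supply genes was called under Cmpd17b, with Dut, which removes dUTP, at 0.38 (edgeR adjusted p = 0.145). Under vehicle Dut was called higher in BPH/2J, at 0.56 (edgeR adjusted p = 0.0272), with groups that did not overlap. For Cmpd17b against vehicle, no gene of the 11 lists was called in either strain by edgeR, DESeq2 or limma-voom, with 2 of 112 genes at an unadjusted p under 0.05 in BPH/2J and 1 in BPN/3J, and the interaction had 0 called and 1 at that level.

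Mcm6 lies on chromosome 1, and 9 tested genes near it on both sides were described because a strain difference at a locus can extend over neighbours. The order is that of RefSeq in GRCm38.p6, which matched 96.7% of the tested genes. On one side Rab3gap1, Zranb3, R3hdm1, Ubxn4 and the predicted gene Gm41949 were not called in either arm, with log2 fold changes between -0.23 and 0.17 apart from Gm41949 (0.40 and 1.10, at about 1 CPM).

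On the other side Cxcr4, a chemokine receptor gene, and C4bp, a complement inhibitor gene, were not called, and Cxcr4 stood at 0.60 on vehicle and 0.35 on Cmpd17b (edgeR adjusted p = 0.113 and 0.372). Cd55, a complement regulator with a close relative, Cd55b, was higher in BPH/2J (1.99 and 1.56, edgeR adjusted p = 1.09e-06 and 7.61e-06). Pfkfb2, an enzyme that sets fructose bisphosphate levels, was lower (-0.67 and -0.72, edgeR adjusted p = 0.0311 and 0.023), and its Cmpd17b call was lost without BPH/2J Cmpd17b replicate 3 or 5 and without BPN/3J Cmpd17b replicate 1 or 4 (edgeR adjusted p from 0.0507 to 0.0746). Its vehicle call was lost without BPH/2J vehicle replicate 5 (-0.63, edgeR adjusted p = 0.0668). The genes near Mcm6 thus differed in direction, and none of these 9 was as far from 0 as Mcm6.

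**Figure D5:**
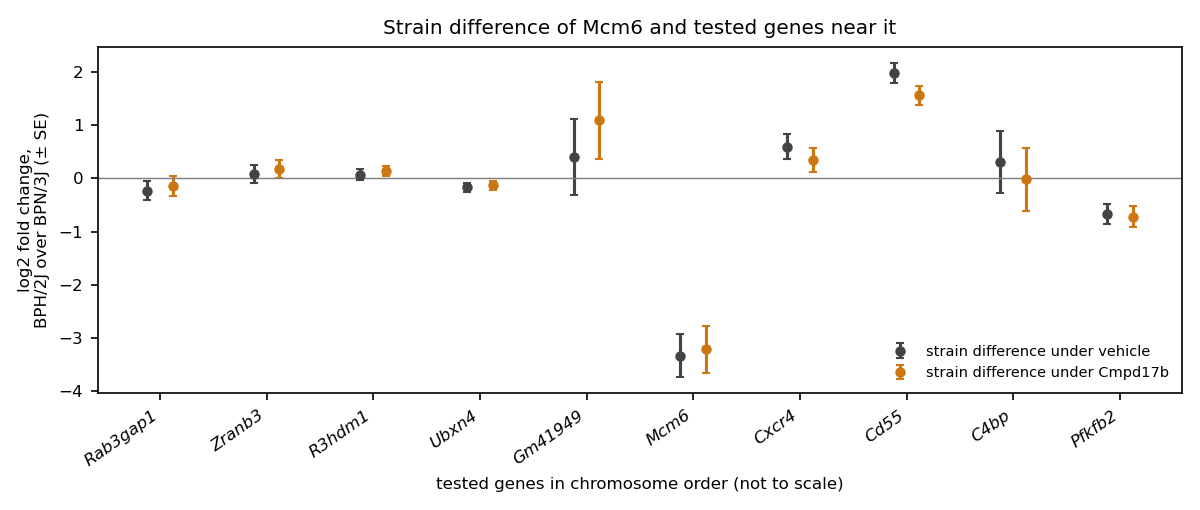
Log2 fold change of BPH/2J over BPN/3J (y axis, bars for ± SE) of Mcm6 and 9 tested genes near it in chromosome order (x axis, not to scale), on vehicle and on Cmpd17b. Mcm6 stands at -3.34 and -3.21, and Cd55 at 1.99 and 1.56.

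Genes were ranked by Pearson's r to Mcm6 in log2(CPM + 0.5) over the 18 libraries. The ranking held 11736 other genes, those with an average log2 CPM of 1 or more and a symbol not of a predicted locus. The genes most like Mcm6 were Fcgrt, Cfap126, Tlr12, Ftl1-ps2 and Tmem267, each at 0.97. The strains form separate clusters in these genes, so the value mostly restates a strain difference. Within BPN/3J (n = 9) r to Mcm6 was -0.12, 0.22, 0.03, 0.14 and 0.39 in that order, with rho at -0.15, 0.42, -0.05, 0.53 and 0.43. Within BPH/2J (n = 9) r was 0.88, 0.84, 0.90, 0.83 and 0.70, and rho was 0.77, 0.87, 0.78, 0.67 and 0.05. Vehicle replicate 5 was above every other BPH/2J library in all 5 genes, for example with Ftl1-ps2 at 17.4 CPM against 0.0756 to 0.749 CPM and Tmem267 at 32.8 CPM against 7.51 to 10.1 CPM. Without it (n = 8) r was 0.73, 0.63, 0.76, 0.61 and -0.34, with rho at 0.67, 0.81, 0.69, 0.52 and -0.36, so the value within BPH/2J for Tmem267 rests on that mouse. Mcm10 was in place 363, at 0.79.

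Total counts ran from 21400119 to 40998662 over the 18 libraries. Defining markers of proximal tubule, thick ascending limb, distal convoluted tubule, collecting duct and podocyte were present in all 4 groups, with none at 0. Summed heart muscle markers, 8 of 8 called higher in treated BPH/2J mice, were at 111 to 163 CPM in that group against 3.75 to 11.8 CPM elsewhere. Myh6 in those mice was at most 0.199% of its level in the library left out. Summed red blood cell markers were 1088 to 1700 CPM there, against 608 to 873 CPM in treated BPN/3J mice, and podocyte markers 105 to 218 against 83.97 to 149 CPM. Of 6 leukocyte markers all had log2 fold changes below 0 under Cmpd17b (median -0.62), with 1 called, Cd3e of T cells (-2.34, edgeR adjusted p = 0.0183). Under vehicle 3 of the 6 were below 0 (median -0.11) and none was called. Ptprc, the pan-leukocyte marker, was at 3.37 to 7.20 CPM in treated BPH/2J and 7.24 to 9.74 CPM in treated BPN/3J mice (-0.71, edgeR adjusted p = 0.0847). The summed level of the list, mostly Csf1r of macrophages, overlapped (41.5 to 57.6 against 42.5 to 59.3 CPM). The part of these cell types in the Mcm6 and Mcm10 differences was not tested. In these whole-tissue libraries, fewer expressing cells and less RNA per cell cannot be told apart.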

How the data were processed

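Polyadenylated kidney RNA from 19 mice was measured, 1 library per mouse, all with batch label 2. The submitters' processing notes name Trim Galore 0.6.7 for trimming, STAR 2.7.9a for alignment and mm39 (GRCm39) as the build. The deposited table holds the authors' estimated counts (expected counts) per gene symbol, in which 4.63% to 10.1% of a library's values were not whole. The quantification tool and the gene annotation were not given in the sources used here. Paired-end reads of a poly(A) library count mature transcripts, and reads shared between genes may have been split.

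Counts were rounded and tested in edgeR 4.0.16 (quasi-likelihood, robust) under R 4.3.3, with TMM factors, filterByExpr at a minimum count of 10 and a minimum total of 15, and Benjamini-Hochberg adjustment, in 1 fit of the 18 libraries with the 4 groups and no covariate. SE is the log2 fold change over the square root of F. The BPH/2J Cmpd17b library numbered replicate 1 was left out because of its heart muscle profile (Myh6 at 14200 CPM before scaling, against at most 28.3 elsewhere, and Slc34a1 of the proximal tubule at 5.94 against at least 2202).

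The members and lists were chosen with earlier results of these data known. Named were the members, up to 4 called genes per list and comparison (or the 2 highest where none was called), the 5 tested genes on each side of Mcm6, the 5 genes most like it, Mki67 and Top2a. Of the genes this rule names, 2 are not reported here. Further examples in a list, and Dut, were named after their values were seen. Correlations used 100000 permutations and a pseudocount of 0.5 CPM. Alternatives were DESeq2 1.42.0, limma-voom (limma 3.58.1), other size factors and filters, a fit that was not robust, only the compared groups, all 19 libraries and leaving out each library. Tests were checked on simulated data.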

Additional observations from a re-analysis of the deposited data

Results flagged for a closer look

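The library labelled BPH/2J Cmpd17b replicate 1, which no comparison uses, held Mcm4 at 8.34 CPM before TMM scaling (258 counts), above the 3.11 to 7.97 CPM of the 5 BPH/2J vehicle mice on the same scale. It was listed for this level in data outside the main measurement, and the library's profile is that of heart muscle, so the value is not one of kidney. Its Mcm6 was at 2.49 CPM, within the 0.540 to 5.69 CPM of the BPH/2J vehicle kidneys, while Mcm10 at 0.582 CPM and Mcm7 at 7.08 CPM were below them (5.30 to 7.58 and 17.3 to 20.003 CPM). A check of 28 sets of 1 member in 1 group listed no mouse as far from the others. It did not list BPH/2J vehicle replicate 5, whose Mcm6 was at 6.35 CPM. The other BPH/2J vehicle mice were at 0.634 to 2.67 CPM, so the check does not show that no mouse stands apart.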

How the results depend on the processing

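Under 9 other settings the Mcm6 strain difference under Cmpd17b stayed called, and that of Mcm10 in 8 of them. With all 19 libraries Mcm10 stood at -0.92 (edgeR adjusted p = 0.109), so 1 member was called. That setting adds a library of another tissue. Counts of called list genes under Cmpd17b were 7 with no filter, 6 with all 19 libraries and 7 with only the compared groups, and under vehicle 7 with all 19 libraries. Left-out libraries gave 1 to 2 called members, 5 to 11 list genes under Cmpd17b, 2 to 5 covarying pairs (a refit added after seeing the data, with 5 without BPH/2J vehicle replicate 5) and vehicle values of Mcm6 from -4.00 (without BPH/2J vehicle replicate 5) to -3.10 and of Mcm7 from -0.0398 to 0.0865. Within BPN/3J or BPH/2J alone, 0 pairs passed.

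Values that changed sign were all of results that passed no test, apart from Pfkfb2 under Cmpd17b (0.36 with all 19 libraries), and the cause was not tested. limma-voom gave 0.00169 for Mcm3 and 0.16 for Mcm6 (Cmpd17b effect in BPH/2J) and 0.00895 for Mcm7 (interaction). The strain difference of Mcm7 under Cmpd17b was -0.0116 with no filter and -0.13 with all 19 libraries, which also gave 0.19 for Mcm3 (Cmpd17b effect in BPH/2J), 0.0548 for Mcm3 and -0.000715 for Mcm10 (interactions). In 1 strain, r was 0.087 for Mcm3 and Mcm7 and 0.0712 for Mcm5 and Mcm7 (BPN/3J), and -0.0448 for Mcm3 and Mcm10, -0.0783 for Mcm4 and Mcm6, -0.0327 for Mcm4 and Mcm10 and -0.0416 for Mcm5 and Mcm10 (BPH/2J).

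Leaving out 1 library gave these ranges. Strain difference under Cmpd17b: Mcm2 -0.055 to 0.32, Mcm4 -0.0889 to 0.24, Mcm5 -0.36 to 0.0596 and Mcm7 -0.0197 to 0.077. Cmpd17b effect in BPH/2J: Mcm4 -0.0878 to 0.24, Mcm2 -0.18 to 0.19, Mcm3 -0.18 to 0.19 and Mcm6 -0.50 to 0.40. Cmpd17b effect in BPN/3J: Mcm4 -0.25 to 0.13 and Mcm5 -0.10 to 0.37. Interaction: Mcm2 -0.0907 to 0.28, Mcm4 -0.0871 to 0.31, Mcm3 -0.32 to 0.0528, Mcm6 -0.12 to 0.78 and Mcm7 -0.0721 to 0.054. Deviation r: Mcm3 and Mcm10 -0.0921 to 0.20, Mcm2 and Mcm10 -0.0432 to 0.38, Mcm4 and Mcm10 -0.18 to 0.22, Mcm4 and Mcm6 -0.20 to 0.34, Mcm2 and Mcm6 -0.0769 to 0.34, Mcm3 and Mcm7 -0.35 to 0.21, Mcm5 and Mcm7 -0.26 to 0.31, Mcm6 and Mcm7 -0.28 to 0.55 and Mcm6 and Mcm10 -0.16 to 0.53.

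No paired analysis was possible because the labels give no replicate number that the groups share. The groups of 4 and 5 mice leave intervals that hold differences of the size of Mcm10's for Mcm3 and Mcm5.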
